A study of Mus musculus with 6 samples.

Results

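Basement membrane genes were followed in primary hepatic stellate cells of mouse liver over days 1, 4 and 7. The set held 10 of the 35999 gene symbols in the deposited table, chosen by symbol: the type IV collagen genes Col4a1, Col4a2 and Col4a5, the proteoglycan-type collagen genes Col15a1 and Col18a1, the laminin genes Lamb1 and Lamc1, the nidogen genes Nid1 and Nid2, and the perlecan gene Hspg2. Each day had 2 libraries, numbered 2 and 3 on day 1 and 1 and 2 on days 4 and 7. The labels give no treatment, genotype, strain, sex or age, do not say what the days were counted from, and name no culture or animal for any library. The p-values therefore describe the spread among the sequenced libraries alone, and that spread may be technical. Values are TPM, a length-corrected abundance scaled to a fixed library total, so sequencing depth is unknown. Means ± SD are over the 2 libraries of a day (n = 2), and tests are limma on log2(TPM + 1) with Benjamini-Hochberg adjustment over all 14373 tested genes.

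A basement membrane is a thin sheet of matrix built from a laminin network and a type IV collagen network that nidogens and the heparan sulfate proteoglycan perlecan tie together. Laminins are trimers of an alpha, a beta and a gamma chain, and type IV collagens are trimers of alpha chains. In the liver the space between sinusoidal endothelium and hepatocytes normally holds basement membrane proteins without a continuous sheet, and deposition of such a sheet in fibrosis is known as capillarization. Stellate cells and endothelial cells are both known sources of these proteins.

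The libraries held RNA of several cell types. The summed TPM of 16 endothelial markers was 2483.25 and 2585.65 on day 1, 2755.17 and 2594.22 on day 4, and 2484.3 and 2409.43 on day 7. Single genes of that list moved in both directions on day 4, with 6 higher and 2 lower at a limma adjusted p under 0.05. The list's median was 64.6 and 77.8 TPM on day 1 and 124 to 149 TPM later. The sum of 12 macrophage markers lay between 10532.5 and 13456.0 TPM on day 1 and between 26101.2 and 28368.7 TPM later, and no gene of either list was at 0 in any library. The 12 quiescent stellate cell markers summed to 260.289 and 272.704 TPM on day 1 and 863.708 to 891.04 TPM later. That rise was carried by Dcn, with 110 ± 31.1 TPM on day 1 and 620 ± 11.4 TPM on day 4. The list's median was 5.66 and 4.48 TPM on day 1 and 12.9 to 17.3 TPM later. Of 2 genes named after their values were seen, the retinol esterification gene Lrat had 0.494 ± 0.00371 TPM on day 1 and 5.99 ± 0.503 TPM on day 4. The other, Colec11, had 4.18 ± 1.25 and 3.01 ± 0.157 TPM. From day 1 to day 7, limma called 6 of 11 tested genes of this list higher and 2 lower, beside 24.7% and 16.8% of all tested genes. The 10 myofibroblast genes summed to 61.8158 and 75.0492 TPM on day 1 and 1776.92 to 1941.06 TPM later. The 9 mesothelial markers summed to 22.4973 and 26.5962 TPM on day 1, 72.6588 and 77.7624 TPM on day 4, and 93.2766 and 124.875 TPM on day 7. The 10 hepatocyte markers summed to 101.578 to 454.607 TPM, carried by Trf, with 59.9 ± 6.59 TPM on day 1 and 424 ± 39.6 TPM on day 7. Alb, the albumin gene, went the other way, with 37.3 ± 5.04 TPM on day 1 and 1.03 ± 0.0304 TPM on day 7, and the list's median was 1.66 and 2.10 TPM on day 1 and 0.125 to 0.418 TPM later. The 6 cholangiocyte markers summed to 28.3098 to 688.712 TPM, carried by Spp1, with 26.7 ± 5.45 TPM on day 1 and 648 ± 40.3 TPM on day 7. The median of that list was 1.03 and 1.11 TPM on day 1 and 1.42 to 3.03 TPM later. The 9 T, NK and B cell markers summed to 5.52435 to 39.5446 TPM. The most abundant markers were Dcn and Ecm1 (stellate), Tagln and Acta2 (myofibroblast), Egfl7 and Cdh5 (endothelial), Lyz2 and Marco (macrophage), Krt19 and Krt8 (mesothelial), Trf and Alb (hepatocyte), Spp1 and Tspan8 (cholangiocyte), and Gzmb and Nkg7 (T, NK and B cell). In these bulk libraries fewer cells of a type and less RNA per cell cannot be told apart, and the part of these cell types in the results below was not tested. On day 1, 12 satellite-like predicted gene models also took 17.4% and 26.2% of all TPM, against 0.0594% to 0.0913% later, which leaves a smaller share of TPM for all other genes on day 1.

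**Figure D1:**
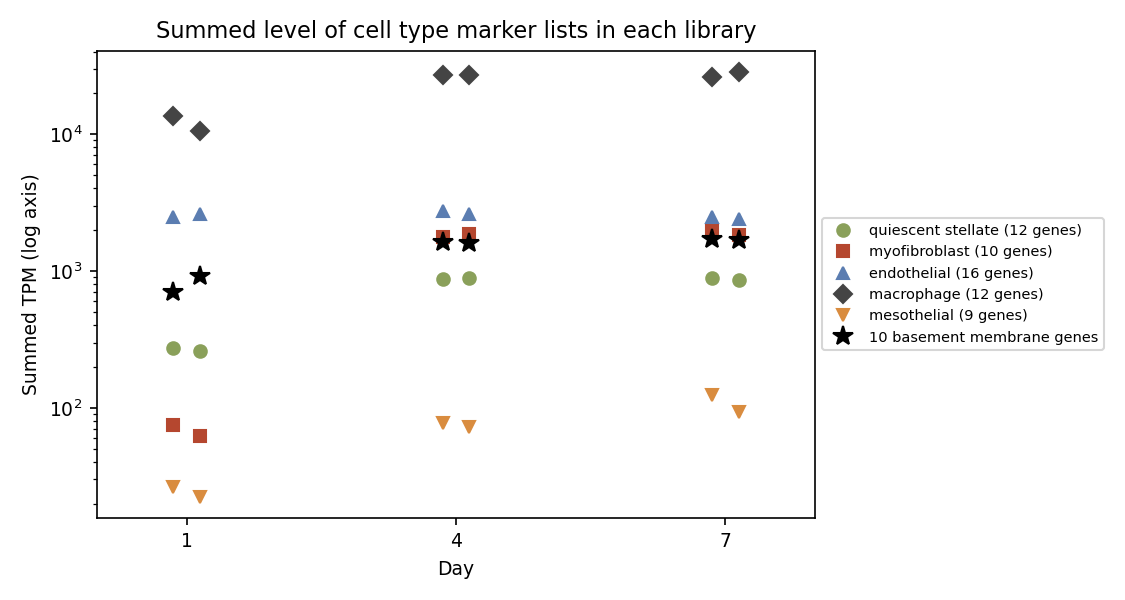
Summed TPM (log axis) of 5 marker lists and of the 10 basement membrane genes in each library, by day. As deposited, the endothelial sums lay between 2409.43 and 2755.17 TPM in all 6 libraries. The stellate, myofibroblast, mesothelial and macrophage sums were higher in all 4 later libraries than in both day 1 libraries. Satellite-like models took 17.4% and 26.2% of all TPM on day 1, which lowers every day 1 sum, and no sum was rescaled for this. Single endothelial markers moved in both directions within the endothelial sum.

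From day 1 to day 4 the 10 genes did not move together. Col4a5, Nid2, Lamb1, Col4a1, Nid1 and Col18a1 rose, with increases of the mean TPM from 2.15-fold for Nid1 to 91.3-fold for Col4a5. Col4a2, Lamc1, Hspg2 and Col15a1 did not pass the test. All 10 genes passed the filter on low values, and 6 of 10 were called higher on day 4, where 36.6% of all tested genes were called and 25% were called higher. None of the 10 was called lower by limma, where 11.6% of all tested genes were called lower. At an unadjusted p under 0.05 none of the 10 was lower either, beside 2445 of 14373 genes. The median log2 change of the 10 genes was 0.98, beside 0.11 for all tested genes. The sum of the 10 genes was 707.052 and 913.535 TPM on day 1, 1631.68 and 1606.3 TPM on day 4, and 1709.04 and 1670.81 TPM on day 7. Col4a1 and Col4a2 made up 74.3% to 83.5% of that sum in every library. The alternative scalings changed the balance of all calls: 68.3% of called genes were higher on day 4 as deposited, 54.4% after median-ratio scaling, 53.1% after quantile normalization and 37.3% when TPM was recomputed with those 12 models removed. That last scaling put the median log2 change over all genes at -0.22, and 5 of the 10 genes were still called higher, Nid1 being the one lost (log2 change 0.79, limma adjusted p = 0.0749).

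**Figure D2:**
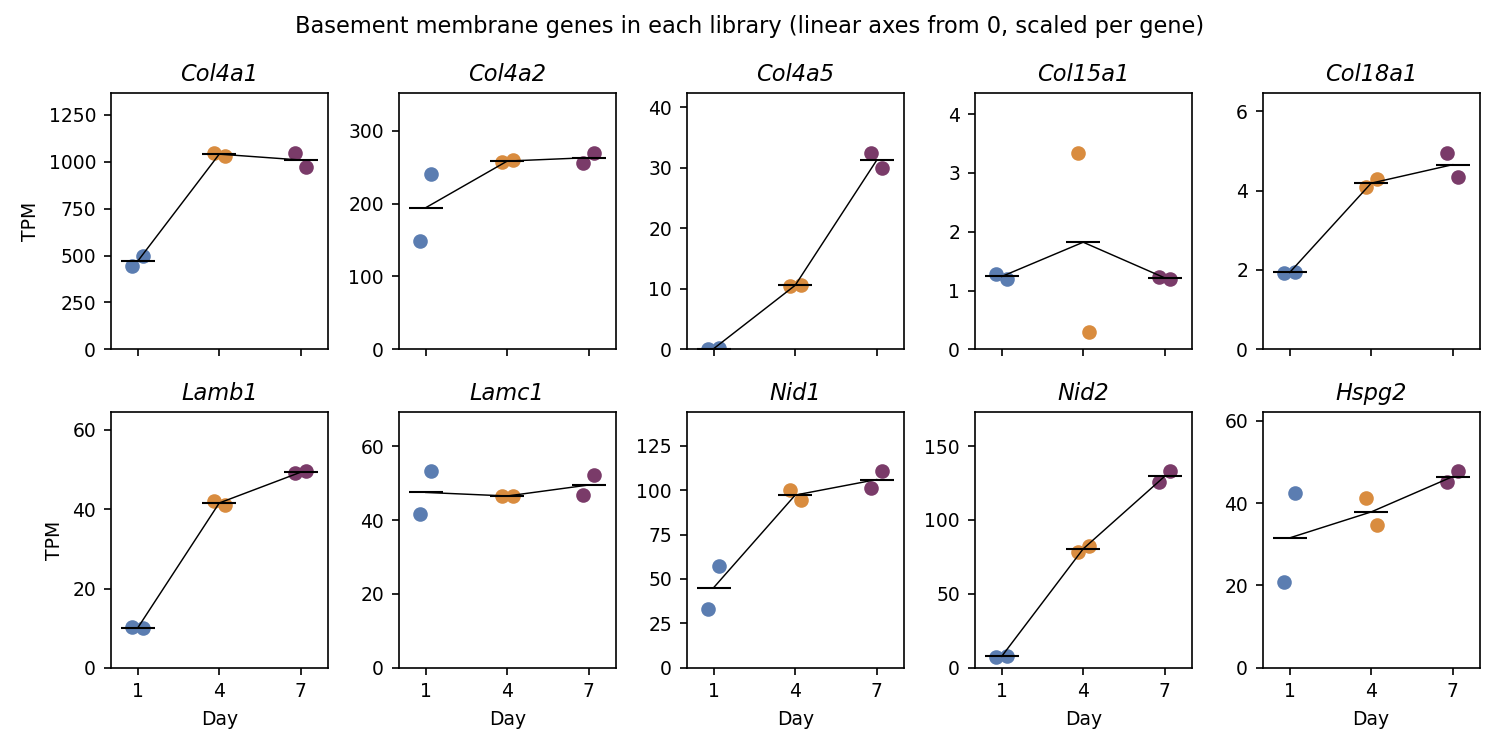
TPM of each of the 10 genes in each library by day, with points for libraries and a line through the day means. Col4a5, Nid2, Col4a1, Lamb1, Nid1 and Col18a1 were higher in all 4 later libraries than on day 1. Both day 7 libraries lay above both day 4 libraries for Col4a5, Nid2, Lamb1, Nid1, Col18a1, Hspg2 and Lamc1. Of these, only Col4a5 passed the test from day 4 to day 7. Lamc1 lay between 41.7 and 53.3 TPM throughout.

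The network-forming collagens led in abundance. Col4a1, on chromosome 8 from 11198423 to 11312826 (GRCm38, minus strand), encodes the most widespread type IV collagen chain. It had 442 and 499 TPM on day 1, 1049 and 1032 TPM on day 4, and 1046 and 972 TPM on day 7, and ranked between 128 and 254 among all symbols. All 4 later libraries lay above both day 1 libraries, and days 4 and 7 overlapped. Its log2 change from day 1 to day 4 was 1.146 (SE 0.14, limma adjusted p = 0.00183), a rise of the mean from 470.5 ± 40.7 to 1040.4 ± 12.1 TPM.

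Col4a2, on the same chromosome from 11312805 to 11449287 on the plus strand, encodes the chain that pairs with the Col4a1 product in the common type IV trimer. It had 149 and 240 TPM on day 1, 257 and 260.2 TPM on day 4, and 256 and 270.1 TPM on day 7. The day 1 libraries lay far apart, and all later libraries were higher than both in the deposited TPM. The log2 change to day 4 was 0.45 (95% interval -0.09 to 0.99, limma adjusted p = 0.161), and without day 1 replicate 3 it was 0.79 and passed (limma adjusted p = 0.000704). Under the satellite-free scaling it was 0.09, and day 1 replicate 3, at 328 TPM, lay above all later libraries (258 to 272 TPM).

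Both genes are known to be transcribed in opposite directions from a common promoter. Their annotated 5′ ends overlap by 22 bases in GENCODE M21, at chr8:11312805-11312826 of GRCm38. The stretch is shown because both genes start in it, on the plus strand from the RefSeq table of build GRCm38.p6, with a GC box (GGGCGG) in capitals.
Col4a1 and Col4a2 overlap: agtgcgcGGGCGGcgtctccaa
The levels from this shared start were unequal. The ratio of Col4a1 to Col4a2 TPM was 2.97 and 2.08 on day 1, 4.09 and 3.97 on day 4, and 4.09 and 3.6 on day 7. All later ratios lay above both day 1 ratios, and a ratio within a library does not move when all its values are multiplied by 1 factor.

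Col4a5, on chromosome X from 141475385 to 141689234, encodes a type IV chain known from the kidney glomerulus and affected in Alport syndrome. It had 0.0998 and 0.132 TPM on day 1, 10.5 and 10.6 TPM on day 4, and 32.5 and 29.9 TPM on day 7. The 3 days did not overlap. The log2 change was 3.37 (SE 0.14, limma adjusted p = 3.96e-05) from day 1 to day 4 and 1.48 (SE 0.14, limma adjusted p = 0.0274) from day 4 to day 7, and the first understates the change because the day 1 values lie far below the pseudocount of 1 TPM. With a pseudocount of 0.1 TPM the first was 5.63 and the second 1.55. The chains that Col4a5 is known to join in trimers stayed low. Col4a6, its head-to-head neighbour, was between 0.21 and 1.06 TPM, Col4a3 between 0.36 and 2.9 TPM, and Col4a4 between 0.0887 and 0.287 TPM. Col4a5 was 0.0169% and 0.0177% of all type IV chain TPM on day 1, 0.798% and 0.814% on day 4, and 2.43% and 2.35% on day 7.

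The laminin genes split. Lamb1, on chromosome 12 from 31265234 to 31329644, encodes the beta chain of the broadly distributed laminins. It had 10.2 and 9.97 TPM on day 1, 42.1 and 41.0 TPM on day 4, and 49.1 and 49.6 TPM on day 7. The libraries of each day lay close together and the 3 days did not overlap. The log2 change was 1.94 (SE 0.10, limma adjusted p = 7.85e-05) from day 1 to day 4 and 0.24 (95% interval 0.00 to 0.48, limma adjusted p = 0.417) from day 4 to day 7.

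Lamc1, on chromosome 1 from 153218922 to 153332786, encodes the gamma chain shared by most laminins. It had 41.7 and 53.3 TPM on day 1, 46.5 and 46.5 TPM on day 4, and 46.7 and 52.3 TPM on day 7. All days overlapped. The log2 change was -0.02 from day 1 to day 4 (95% interval -0.36 to 0.33, limma adjusted p = 0.927) and 0.07 from day 1 to day 7 (95% interval -0.28 to 0.41, limma adjusted p = 0.728). The first kept its sign under each of the 4 other scalings tried, and was -0.37 without the satellite-like models (limma adjusted p = 0.146). The second turned to -0.0097 after median-ratio scaling and to -0.28 without the satellite-like models. Lamc1 held 93.3% to 95.7% of the gamma chain TPM in every library.

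Relative to the gamma chains, the beta chains grew. The ratio of Lamb1 to Lamc1 was 0.246 and 0.187 on day 1, 0.905 and 0.883 on day 4, and 1.05 and 0.949 on day 7. With Lamb2 and Lamb3 included, the ratio of beta to gamma chain TPM was 0.618 and 0.632 on day 1 and 1.41 to 1.76 later. Lamb2, another beta chain gene, rose from 9.44 ± 2.52 to 30.02 ± 2.55 TPM by day 4 (log2 change 1.59, SE 0.19, limma adjusted p = 0.00173). Lamb3, the beta chain gene of the epithelial laminin, differed between the day 1 libraries (5.45 and 17.9 TPM) and did not pass in any comparison.

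The alpha chains changed in make-up more than in sum. They summed to 28.7 and 32.0 TPM on day 1 and 35.1 to 37.2 TPM later. Lama4, the alpha chain gene of vascular laminins, held 76.0% and 71.6% of that sum on day 1, 65.6% and 62.2% on day 4, and 49.6% and 48.8% on day 7. Lama1, best known from embryonic basement membranes, had 0.469 ± 0.0462 TPM on day 1, 4.02 ± 0.463 TPM on day 4 and 1.56 ± 0.272 TPM on day 7, and rose by day 4 (log2 change 1.77, SE 0.20, limma adjusted p = 0.00131). Lama2, the alpha chain gene of muscle laminin, had 1.25 and 0.21 TPM on day 1, 2.22 and 2.19 TPM on day 4, and 7.43 and 8.91 TPM on day 7. Its change passed from day 1 to day 7 (log2 change 2.47, SE 0.31, limma adjusted p = 0.00177) but not in either shorter interval. Lama5 did not pass in any comparison, and Lama3 stayed below 0.322 TPM.

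**Figure D3:**
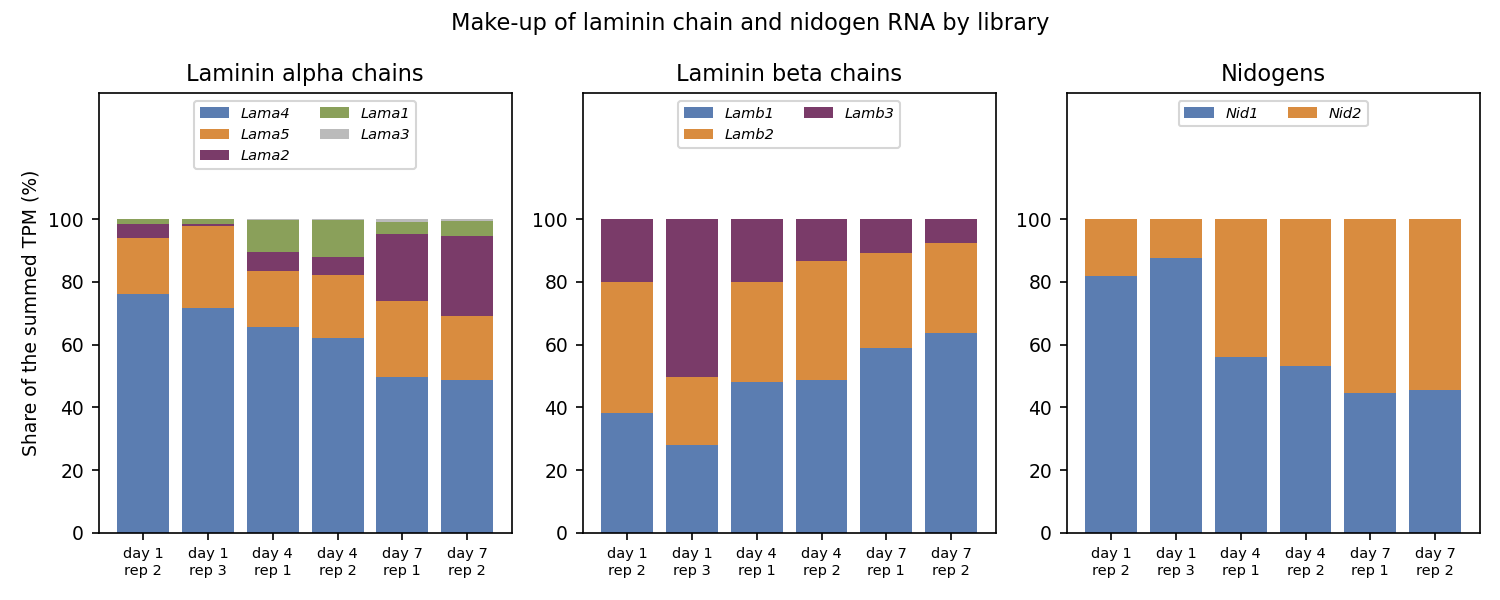
Shares of the summed TPM of the 5 laminin alpha chain genes, the 3 beta chain genes and the 2 nidogen genes in each library, in percent. Lama4 went from 76.0% and 71.6% of alpha chain TPM on day 1 to 49.6% and 48.8% on day 7, and Nid2 from 18.2% and 12.5% of nidogen TPM to 55.5% and 54.6%.

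The nidogens exchanged places. Nid1, on chromosome 13 from 13437551 to 13512269, and Nid2, on chromosome 14 from 19751265 to 19811787, encode the glycoproteins that link laminin to type IV collagen. Nid1 had 33.2 and 57.1 TPM on day 1, 100.1 and 94.3 TPM on day 4, and 101 and 111 TPM on day 7. All later libraries lay above both day 1 libraries. The log2 change from day 1 to day 4 was 1.14 (SE 0.24, limma adjusted p = 0.0143), and it missed the threshold without day 4 replicate 1 or 2 (limma adjusted p = 0.0805 and 0.07), which left 1 library on that day, assumed to vary like the rest. Its exons share 143 bases with those of the antisense model Gm48682, which was not analysed here.

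Nid2 had 7.41 and 8.19 TPM on day 1, 78.3 and 82.7 TPM on day 4, and 126 and 133 TPM on day 7. The 3 days did not overlap, and the mean rose 10.3-fold in the first interval. The log2 change was 3.21 (SE 0.10, limma adjusted p = 2.27e-05) from day 1 to day 4 and 3.89 (SE 0.10, limma adjusted p = 9.74e-06) from day 1 to day 7. From day 4 to day 7 it was 0.68 (95% interval 0.43 to 0.93), which did not pass (limma adjusted p = 0.0685). The ratio of Nid2 to Nid1 was 0.223 and 0.143 on day 1, 0.782 and 0.876 on day 4, and 1.24 and 1.20 on day 7, so Nid2 was the lower of the pair in all 4 libraries of days 1 and 4 and the higher in both of day 7. The exons of Nid2 share 437 bases with those of Rtraf on the opposite strand, and the use of strand in the deposited quantification is not given in the sources used here. Rtraf itself had 93.4 ± 20.6 TPM on day 1, 154 ± 1.82 TPM on day 4 and 162 ± 0.991 TPM on day 7.

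Perlecan did not pass the test. Hspg2, on chromosome 4 from 137468769 to 137570630, had 20.7 and 42.4 TPM on day 1, 41.1 and 34.6 TPM on day 4, and 45.1 and 47.8 TPM on day 7. Day 1 replicate 3 lay above both day 4 libraries and replicate 2 below all others. The log2 change from day 1 to day 4 was 0.33 (95% interval -0.41 to 1.08, limma adjusted p = 0.423). It became 0.83 without day 1 replicate 3 (limma adjusted p = 0.0064), -0.16 without day 1 replicate 2 (limma adjusted p = 0.312) and -0.01 under the satellite-free scaling. Of the 10 genes, 8 had a higher TPM in day 1 replicate 3 than in replicate 2, with Hspg2 the most at 2.05-fold, Nid1 at 1.72-fold and Col4a2 at 1.61-fold.

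The multiplexins, collagens with glycosaminoglycan chains and C-terminal fragments known to restrain vessel growth, were scarce. Col18a1, on chromosome 10 from 77052178 to 77166548 and the source of endostatin, had 1.93 and 1.94 TPM on day 1, 4.08 and 4.29 TPM on day 4, and 4.96 and 4.35 TPM on day 7. Both later days lay above day 1 and did not overlap it. The log2 change to day 4 was 0.82 (SE 0.16, limma adjusted p = 0.0104), and it missed the threshold without day 4 replicate 1 or 2 (limma adjusted p = 0.0646 and 0.0788). Col15a1, on chromosome 4 from 47208161 to 47313167, had 1.28 and 1.20 TPM on day 1, 3.35 and 0.295 TPM on day 4, and 1.23 and 1.20 TPM on day 7. The day 4 libraries lay on either side of all others, and its log2 change to day 4 was 0.08 (95% interval -1.21 to 1.37, limma adjusted p = 0.910).

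The sequences before the start sites of 4 members are shown because they include genes that rose (Col4a5, Lamb1 and Nid1) and 1 that did not pass the test (Hspg2). They come from the RefSeq promoter table of build GRCm38.p6, plus strand, and end before the GENCODE gene model. Capitals mark CCAAT boxes (CCAAT), GC boxes (GGGCGG) and TEAD motifs (GGAATG) on either strand, and no marked matches overlap.
Col4a5 chrX:141475169-141475384: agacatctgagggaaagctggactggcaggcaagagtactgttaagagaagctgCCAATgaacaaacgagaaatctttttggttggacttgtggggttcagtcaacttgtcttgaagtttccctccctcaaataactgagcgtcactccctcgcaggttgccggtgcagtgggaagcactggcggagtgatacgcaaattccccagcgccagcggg
Lamb1 chr12:31265043-31265233: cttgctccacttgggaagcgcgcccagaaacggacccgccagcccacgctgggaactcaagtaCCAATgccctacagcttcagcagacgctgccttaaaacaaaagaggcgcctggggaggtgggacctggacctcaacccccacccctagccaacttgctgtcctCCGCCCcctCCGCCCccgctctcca
Nid1 chr13:13437352-13437550: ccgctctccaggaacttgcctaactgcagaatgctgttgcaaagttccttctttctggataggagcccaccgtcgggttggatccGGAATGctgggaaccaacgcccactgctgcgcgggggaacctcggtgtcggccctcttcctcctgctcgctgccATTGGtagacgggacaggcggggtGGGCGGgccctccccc
Hspg2 chr4:137468553-137468768: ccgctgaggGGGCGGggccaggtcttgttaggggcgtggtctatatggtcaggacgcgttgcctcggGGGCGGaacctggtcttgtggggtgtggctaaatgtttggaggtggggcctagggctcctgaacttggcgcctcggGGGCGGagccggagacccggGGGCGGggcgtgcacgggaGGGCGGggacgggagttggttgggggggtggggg
The table held 9 promoter windows for 8 of the 10 genes, Col18a1 having 2, with 250 bases before each start. In those windows a GC box occurred in 6 of 9, against 32.7% of all 32851 windows, and a CCAAT box in 6 of 9, against 33.8%. A TATA box (TATAAA) and an AP-1 motif (TGANTCA) occurred in none of the 9, against 12.4% and 6.75% of all windows, and the TEAD motif in 2 of 9, against 12.6%. Hspg2 had 5 GC boxes and Lamb1 2, while the only GC box of Col4a5 lay 30 bases before its RefSeq start, past the end of the stretch shown. These matches describe letters only, and whether they differ between genes that rose and genes that did not pass was not tested.

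From day 4 to day 7, Col4a5 rose 2.95-fold in mean TPM, and the mean of Nid2 was 1.61-fold higher without passing the test. Col4a5 was the only 1 of the 10 called, in the upward direction, where 0.466% of all tested genes were called, 0.306% higher and 0.16% lower. At an unadjusted p under 0.05, 3 of the 10 (Col4a5, Nid2 and Lamb1) were higher, beside 592 of 14373 genes. None was called lower by limma, and none had a lower value at an unadjusted p under 0.05, beside 1113 of 14373 genes. Col4a1 (log2 change -0.05, 95% interval -0.38 to 0.29) and Col4a2 (log2 change 0.03, 95% interval -0.52 to 0.57) did not pass. The Col4a5 call was lost without any 1 of the day 4 or day 7 libraries (limma adjusted p from 0.276 to 0.361). Nid2 passed under 3 of the 16 alternatives, among them a fit of only days 4 and 7 (limma adjusted p = 0.0134), with the same log2 change of 0.68. It did not pass with no filter on low values (limma adjusted p = 0.159) or without the satellite-like models (limma adjusted p = 0.124). Leaving out 1 day 4 or day 7 library put its log2 change between 0.64 and 0.72.

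Over the whole course, day 1 to day 7, the same 6 genes as in the first interval were called higher, where 41.4% of all tested genes were called, 24.7% higher and 16.8% lower. Both comparisons share the day 1 libraries, so the second is not independent of the first. None of the 10 was called lower by limma or had a lower value at an unadjusted p under 0.05, beside 3171 of 14373 genes at that p. Log2 changes were 4.85 for Col4a5, 3.89 for Nid2, 2.18 for Lamb1, 1.26 for Nid1, 1.10 for Col4a1 and 0.94 for Col18a1. The median over the 10 genes was 1.02, beside 0.04 for all tested genes. Without the satellite-like models the same number, 6, was called, while the share of all called genes that were higher went from 59.5% to 32.1%. Nid1 missed the threshold without day 7 replicate 1 or 2 (limma adjusted p = 0.0573 and 0.0706), and Col18a1 without day 7 replicate 1 (limma adjusted p = 0.0526).

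**Figure D4:**
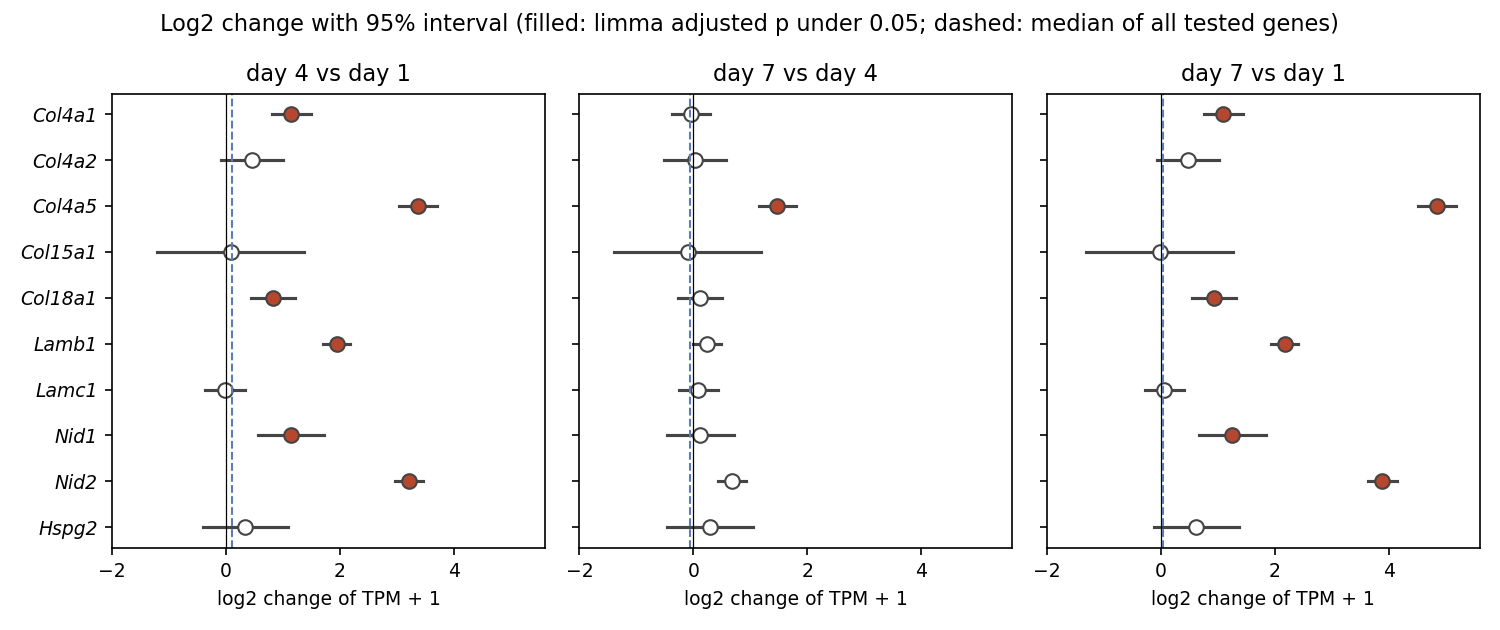
Log2 change of TPM + 1 of each gene with its 95% interval in the 3 comparisons, filled where the limma adjusted p was under 0.05, with the median of all tested genes as a dashed line. Filled points number 6 from day 1 to day 4, 1 from day 4 to day 7 and 6 from day 1 to day 7, all to the right of 0.

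The order of levels shifted over the course. On day 1 it was Col4a1, Col4a2, Lamc1, Nid1, Hspg2, Lamb1, Nid2, Col18a1, Col15a1 and Col4a5, with Lamc1 and Nid1, and Nid1 and Hspg2, overlapping between libraries. On day 7 it was Col4a1, Col4a2, Nid2, Nid1, Lamc1, Lamb1, Hspg2, Col4a5, Col18a1 and Col15a1, with Lamc1 and Lamb1 overlapping. On day 4 the neighbours that overlapped were Lamb1 and Hspg2.

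Other structural components of basement membranes mostly had positive changes from day 1 to day 4. Of 31 such genes, 18 were tested, and 8 were called higher and 1 lower on day 4, beside 25% and 11.6% of all tested genes. Their median log2 change was 0.58, and 16 of the 18 changes were positive, beside 8210 of 14373 over all tested genes. Fbln2, encoding the laminin- and nidogen-binding fibulin-2, rose from 2.52 ± 0.0293 to 39.0 ± 0.462 TPM by day 4 and to 100.4 ± 3.68 TPM by day 7 (log2 change 3.51 and then 1.34, limma adjusted p = 2.01e-05 and 0.0143). Tinagl1, encoding a laminin-associated glycoprotein, rose from 102 ± 0.546 to 377 ± 21.6 TPM (log2 change 1.88, limma adjusted p = 0.000195). The 1 that fell was Agrn, the gene of the heparan sulfate proteoglycan agrin, named after its value was seen, with 18.2 ± 5.23 TPM on day 1 and 9.61 ± 0.0281 TPM on day 4 (log2 change -0.83, limma adjusted p = 0.0224). That call was lost in a fit of only days 1 and 4 and without any 1 of the 4 later libraries, where the number called lower was 0, and it was 2 without day 1 replicate 2. Between days 1 and 7, 8 were called higher and 2 lower, beside 24.7% and 16.8% of all tested genes, and 10 of the 18 changes were positive. The 2 lower were Agrn and Lama4 (log2 change -0.35, limma adjusted p = 0.0393).

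Receptors of the basement membrane mostly rose where they passed. Of 15 tested, 7 were called higher and 1 lower on day 4, beside 25% and 11.6% of all tested genes, with a median log2 change of 0.42. The syndecan gene Sdc2 rose by 2.60 on the log2 scale (limma adjusted p = 7.22e-05), the collagen receptor kinase gene Ddr1 by 2.29 (limma adjusted p = 0.00138) and Itga1, the alpha subunit gene of a type IV collagen-binding integrin, by 2.10 (limma adjusted p = 9.36e-05). The 1 that fell was Bcam, a laminin alpha 5 receptor gene named after its value was seen, with a log2 change of -1.35 (limma adjusted p = 0.000361). The number called lower was 3 without day 1 replicate 2 and also 3 without the satellite-like models. Between days 1 and 7, 8 were called higher and 2 lower (Bcam and Sdc3, both named after their values were seen), beside 24.7% and 16.8% of all tested genes. Among those higher, Sdc1, another syndecan gene, was at 1.46 (limma adjusted p = 0.00332).

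Genes of collagen and proteoglycan assembly rose or did not pass. Of 22 tested, 16 were called higher and none lower on day 4 by limma, beside 25% and 11.6% of all tested genes. At an unadjusted p under 0.05, 0 were lower, beside 2445 of 14373 genes. The median log2 change was 0.82. The lysyl hydroxylase gene Plod2 rose by 2.71 (limma adjusted p = 0.000207), the lysyl oxidase-like gene Loxl1 by 2.01 (limma adjusted p = 0.000667) and Serpinh1, the gene of the collagen chaperone HSP47, by 1.96 (limma adjusted p = 0.000252). Without day 4 replicate 1 the number called higher was 9, and without the satellite-like models 11, while without day 1 replicate 2 there was 1 called lower. By day 7, 14 were called higher than on day 1, beside 24.7% of all tested genes.

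Genes of matrix degradation were divided. Of 17 tested, 6 were called higher and 6 lower on day 4, beside 25% and 11.6% of all tested genes, with a median log2 change of -0.11. The procollagen proteinase gene Bmp1 rose by 2.86 (limma adjusted p = 9.7e-05) and the cathepsin K gene Ctsk by 1.62 (limma adjusted p = 0.00608), while the aggrecanase gene Adamts4 fell by 2.00 (limma adjusted p = 0.000286). Without the satellite-like models 5 were called higher and 9 lower, and without day 4 replicate 2 3 were lower. Between days 1 and 7, 7 were called higher and 5 lower, beside 24.7% and 16.8% of all tested genes. Among those higher, Plat, the tissue plasminogen activator gene, was at 1.55 (limma adjusted p = 0.000474). Beside all 4 lists, the marker lists moved on day 4 as well, where 25% of all tested genes were called higher and 11.6% lower. At an unadjusted p under 0.05, 4496 of all 14373 tested genes were higher and 2445 lower. Of the tested markers, 10 of 10 myofibroblast, 7 of 11 quiescent stellate, 10 of 12 macrophage and 7 of 9 mesothelial genes were called higher and none of these lower, by limma or at an unadjusted p under 0.05. Of 16 endothelial markers 6 were called higher and 2 lower, and of 8 hepatocyte markers 1 was called higher and 6 lower. Of 5 cholangiocyte markers 3 were called higher and 1 lower, and of 5 T, NK and B cell markers none was called higher, none was higher at an unadjusted p under 0.05, and 2 were called lower.

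**Figure D5:**
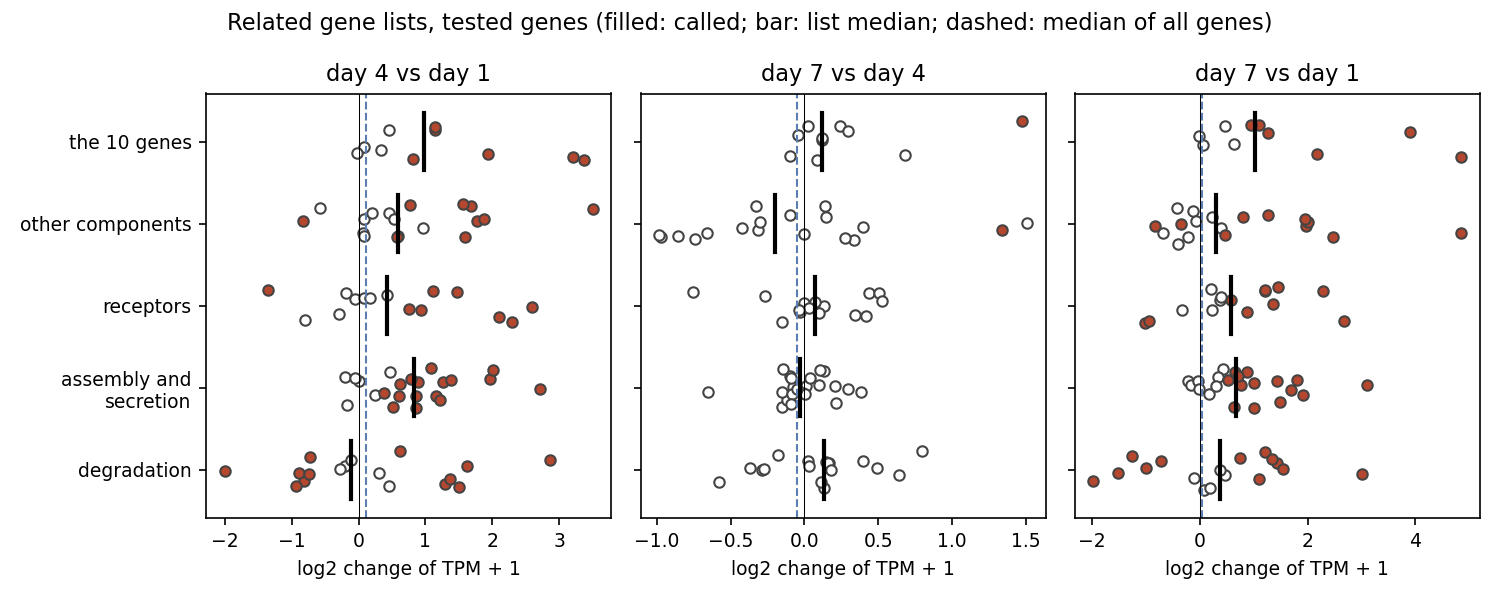
Log2 change of TPM + 1 of the tested genes of the 5 lists in the 3 comparisons, filled where called, with a bar at each list's median and a dashed line at the median of all tested genes. From day 1 to day 4 the list medians ran from -0.11 for degradation to 0.98 for the 10 genes.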

How the data were processed

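Per the labels' protocols, RNA was extracted with TRIzol, ribosomal RNA was depleted, and stranded total RNA libraries were made. The authors deposited 1 TPM value for each symbol in each library. Trimmomatic, HISAT2 2.0.5, StringTie 1.3.3b and the builds mm10 and GRCm38 are named in the submitters' processing notes. Which annotation was used, and whether strand was, is not given in the sources used here. Since TPM keeps no depth, no counting error was computed.

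The test covered 14373 of 35999 symbols, those reaching 1 TPM in 2 or more of the 6 libraries. Day was the only factor of a linear model of log2(TPM + 1), made with limma 3.58.1 in R 4.3.3, with trended, robust variances from all 6 libraries (3 residual degrees of freedom) and Benjamini-Hochberg adjustment per comparison. An adjusted p under 0.05 made a call. The fit was run on simulated data with independent noise and few changed genes. That setting holds no shift in the make-up of the day 1 libraries, so it cannot show how the fit errs under such a shift. The pseudocount makes log2 changes of low genes too small. Satellite-like models were the 12 sharing at least 10% of their 20-base words with Gm10800. Coordinates are from GENCODE M21 on GRCm38. The labels name no batch.

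The members and lists were chosen with earlier results of these data known. All 10 members are described. From each list the text names the 3 called genes with the largest change per comparison, every laminin and type IV chain, the 2 most abundant genes of each marker list, the 5 genes most like Col4a1 and Lamc1, and further genes that are marked as named after their values were seen. The 16 alternatives changed the pseudocount, filter, scaling, variance model or libraries, or added a replicate block. Figures were drawn with matplotlib 3.10.9.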

Additional observations from a re-analysis of the deposited data

How the results depend on the processing

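Of 474 values of the 10 genes under 16 alternatives, 429 kept their direction and side of the threshold, 15 lost and 11 gained a call, and 19 turned sign, none of them called. The members called higher stayed within 1.5 times in both comparisons with day 1, at 4 to 8. Other counts moved, and the cause was not tested. From day 4 to day 7, all genes called numbered 67, against 4 with no filter, 37 after quantile normalization, 116 after rescaling over protein-coding genes (which keeps Gm10800), 609 in a fit of only those days, and 0 to 546 when leaving out 1 library. Members called higher there numbered 0 with no filter, 2 in a fit of only those days and 0 to 2 leaving out 1 library. Other basement membrane components called higher there numbered 0 with no filter, 3 in a fit of only those days and 0 to 3 leaving out 1 library. Components called lower numbered 1 there with at least 5 TPM, over protein-coding genes and in a fit of only those days, and 0 to 1 leaving out 1 library. On day 4 against day 1 components called lower numbered 0 with no filter and in a fit of only those days, and 0 to 2 leaving out 1 library. On day 7 against day 1 they numbered 1 with no filter, with plain variances and in a fit of only those days, and 0 to 5 leaving out 1 library. All genes called ranged from 2196 to 7602 on day 4 and from 2684 to 7979 on day 7 against day 1 when leaving out 1 library, the lowest being without a day 4 or day 7 library.

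The sign turned for Col15a1 on day 4 against day 1 (-0.20 with a pseudocount of 0.1, -0.12 without satellite-like models, -0.38 with the replicate block, -0.79 to 0.96 leaving out 1 library), on day 7 against day 4 (0.17 with a pseudocount of 0.1, -0.97 to 0.77 leaving out 1 library) and on day 7 against day 1 (0.028 after quantile normalization, -0.041 to 0.012 leaving out 1 library). For Lamc1 it turned on day 4 (0.19 with the replicate block, -0.19 to 0.15 leaving out 1 library) and on day 7 against day 1 (-0.0097 after median-ratio scaling, -0.28 without satellite-like models, -0.11 to 0.24 leaving out 1 library). For Hspg2 it turned on day 4 (-0.012 without satellite-like models, -0.16 to 0.83 leaving out 1 library). From day 4 to day 7 it turned for Col4a1 (0.026 after median-ratio scaling, -0.098 to 0.0083 leaving out 1 library) and Col4a2 (-0.013 to 0.064 leaving out 1 library).

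Libraries of days 4 and 7 share the numbers 1 and 2, while day 1 shares only number 2 with them. Same-numbered libraries of days 4 and 7 did not deviate together (r = 0.00423 across 14373 genes). With 2 libraries a day, this single correlation cannot tell whether the numbers mark a shared animal or culture, which the labels do not give. No library but day 1 replicate 3 has the number 3, so the replicate block fits that library exactly and day 1 rests on replicate 2 alone. With the block, the log2 changes to day 4 were 0.82 for Col4a2 and 0.79 for Hspg2, beside 0.79 and 0.83 without day 1 replicate 3. Calls against day 1 under the block therefore cannot show what pairing would change. From day 4 to day 7, 0 members were called higher with the block, where all genes called numbered 31.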

Other observations

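The genes whose course over the 6 libraries was most like that of Col4a1, out of 12865 tested genes that are not predicted models, were Wwp1, Snx30, Matn2, Itgav and Ccdc102a. Their root mean square differences from Col4a1 on the centred log2(TPM + 1) scale were 0.0291, 0.0484, 0.0534, 0.0541 and 0.0576. Itgav, an integrin alpha subunit gene, had 51.2 and 57.5 TPM on day 1, 124 and 119 TPM on day 4, and 115 and 103 TPM on day 7. The genes most like Lamc1 were Zfp704, Thap3, Arf4, Anp32e and Hdac1, with differences of 0.0287, 0.0296, 0.0321, 0.0350 and 0.0369. Hdac1, a histone deacetylase gene, had 34.3 and 45.5 TPM on day 1 and 37.8 to 44.9 TPM later. Both lists describe likeness over 3 days in 6 libraries only.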
